A study of Homo sapiens with 18 samples.

Results

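Long intergenic noncoding RNAs are transcripts that lie between protein-coding genes and carry a LINC symbol followed by a number. The members described here are the LINC symbols that reached 0.5 FPKM (sequenced fragments scaled to transcript length and to the library's total) in at least 3 of the 18 libraries. Rows that merge several gene names were left out, and the row with the highest mean was kept where a symbol had several rows, which 11 members did. The table held 586 LINC symbols with a row of their own, and 124 of them were members. Of the 462 below the level, 162 were listed at 0 in every library. The 18 libraries are from 3 established human lymphoma cell lines, SUDHL6, SUDHL4 and Farage, all diffuse large B-cell lymphomas with a germinal centre phenotype. In every line, cells that received a BCL6 inhibitor (BCL6.inh in the labels) are set against cells that received the solvent DMSO, with 3 libraries in each of the 6 groups. No genetic change separates inhibitor from DMSO libraries within a line. The sources used here give neither the inhibitor's name nor its dose, and the time reads 12 h in the sample titles and 24 h in the source names. Each line is 1 cell culture model, and nothing says that replicates were separate cultures, so p-values measure the spread between libraries. Cells were grown in RPMI1640 with 10% fetal bovine serum.

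BCL6 is a transcriptional repressor that germinal centre B cells need and that lymphomas of this origin often depend on. Long noncoding RNAs act in several ways: some bind proteins in the cytoplasm, some act on a neighbouring gene through their own transcription, and some LINC loci turn out to encode microproteins. They are usually less abundant and more restricted to a cell type than messenger RNAs. All 124 members matched an entry of the RefSeq gene table, 88 by symbol and 36 by an older name. RefSeq classed 111 as long noncoding RNA, 10 as protein coding and 3 as transcribed pseudogenes.

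Since a level of FPKM chose the members, the levels below are a description. The members' means over the 18 libraries ran from 0.169 to 62.0 FPKM with a median of 0.986 FPKM. A mean of at least 10 FPKM was reached by 13 members, 48 lay between 1 and 10 FPKM and 63 were under 1 FPKM. The 6 highest held 44.6% of the sum of these means. The level was met in all 18 libraries by 40 members. It was met only in inhibitor libraries by 11 and only in DMSO libraries by 5. Just inside the rule, the third-highest library held 0.507 FPKM for LINC00337, 0.518 FPKM for LINC00421 and 0.529 FPKM for LINC00884. Just outside it were LINC00634 at 0.493 FPKM, LINC00189 at 0.486 FPKM and LINC00235 at 0.460 FPKM.

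Both SUDHL6 replicate 3 libraries stood apart. The number of members listed at 0 was 29 in the inhibitor library and 32 in the DMSO library of that replicate, against 3 to 12 in the other 16 libraries. Their best correlation with another library of their group, across named loci, was 0.908 and 0.921, against 0.953 to 0.976 elsewhere. Where a member's response in SUDHL6 is described, its calls with and without these libraries are therefore given if they differ. The B cell markers MS4A1 and PAX5 were expressed in every library. MS4A1 averaged 312, 681 and 235 FPKM under the inhibitor in SUDHL6, SUDHL4 and Farage and 657, 935 and 455 FPKM under DMSO. Both genes were called lower under the inhibitor in every line, and in bulk libraries fewer cells of a type and less RNA per cell cannot be told apart. In SUDHL6, SUDHL4 and Farage the 4 plasma cell markers summed to 46.1 to 87.8, 10.3 to 11.9 and 200 to 213 FPKM with inhibitor. Under DMSO these sums were 13.6 to 27.8, 2.74 to 4.31 and 56.5 to 59.6 FPKM. XBP1 was called higher in every line. IRF4 and PRDM1 were called higher in SUDHL6 and Farage and not in SUDHL4 (limma adjusted p = 0.0562 and 0.431). In SUDHL6, however, PRDM1 stayed under 0.5 FPKM, averaging 0.104 FPKM under the inhibitor and 0 FPKM under DMSO. In Farage it averaged 1.665 FPKM under the inhibitor and 0.533 FPKM under DMSO. SDC1 was below the level. The 3 monocyte markers summed to 2.27 to 3.50 FPKM under the inhibitor and 0.694 to 1.99 FPKM under DMSO. CD14 was called higher in every line, LYZ was called in none, and CSF1R was below the level. Markers of T and NK cells summed to 0 in SUDHL6 and to at most 1.13 FPKM elsewhere. A fibroblast and epithelial list, of which THY1 and DCN carried the sum, reached in SUDHL4 14.7 to 15.9 FPKM under the inhibitor and 51.2 to 55.4 FPKM under DMSO, and at most 1.1 FPKM in the other lines. The part of these genes in the members' values was not tested.

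The lines differed in which members they expressed. A line was taken to express a member where at least 3 of its 6 libraries held 0.5 FPKM. By this measure 62 members were expressed in all 3 lines, 20 in exactly 2 and 34 in exactly 1, and 8 reached the level without 3 libraries in any line. Farage held 20 of the members restricted to 1 line, SUDHL4 10 and SUDHL6 4. Both SUDHL6 replicate 3 libraries reached the level for fewer members, 64 and 68, against 79 to 81 in the other SUDHL6 libraries. Restriction was not counted without them, nor over all tested loci. Among members of exactly 2 lines, 11 were shared by SUDHL6 and SUDHL4, 7 by SUDHL4 and Farage and 2 by SUDHL6 and Farage. No library held a trace of 7 members in SUDHL6, 2 in SUDHL4 and 3 in Farage, where all 6 values were 0. Counting DMSO libraries alone left 57 members in all 3 lines and 26 in 1 line, with Farage again holding the most, 14. At a level of 1 FPKM the same counts were 41 in all 3 lines and 26 in 1 line, of which Farage held 13, SUDHL4 11 and SUDHL6 2.

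**Figure D1:**
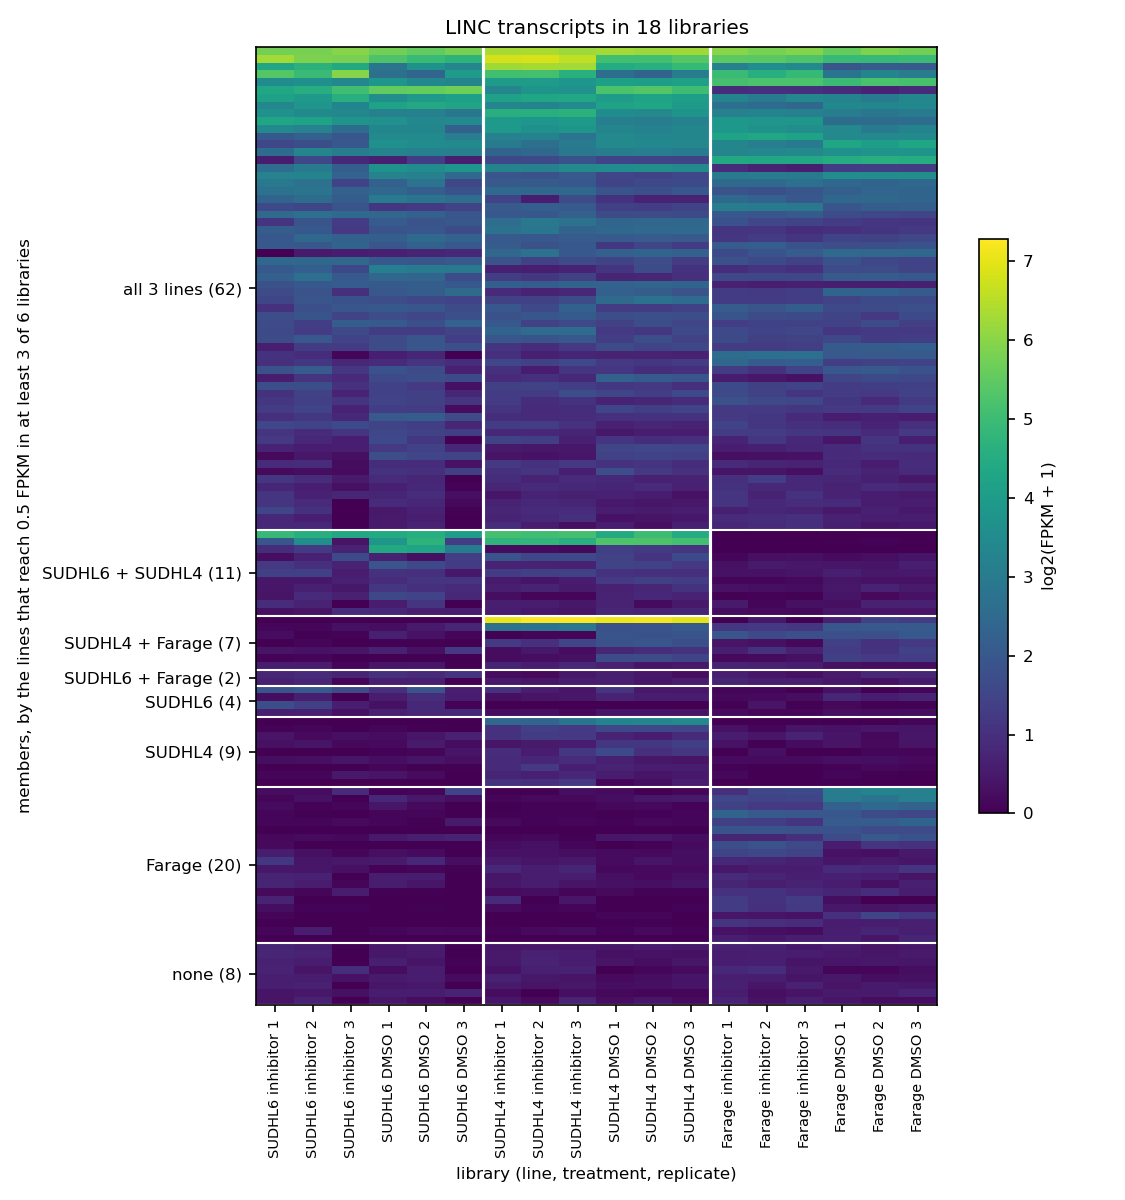
The plot shows log2(FPKM + 1) of 123 members (rows) in the 18 libraries (columns, by line and treatment), with rows grouped by the lines that reach 0.5 FPKM in at least 3 of 6 libraries and ordered by mean. Yellow is high and dark purple is 0. The 20 members restricted to Farage are dark in most SUDHL6 and SUDHL4 libraries, the brightest row outside the 62 members of all 3 lines is LINC00221 in SUDHL4 (126 to 156 FPKM), and the replicate 3 columns of SUDHL6 hold the most members at 0 (29 and 32). A member on chromosome Y is not drawn.

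In Farage the most abundant restricted member was LINC00173, a transcript described in human granulocyte differentiation (chr12:116971219-116978957 in hg19, the build of the table, here and for all members). It held 1.02, 1.92 and 2.13 FPKM in inhibitor libraries of Farage, against 7.58, 8.77 and 8.11 FPKM in DMSO libraries. The groups did not overlap, and the log2 fold change of FPKM + 1 was -1.79 (SE 0.30, limma adjusted p = 0.000102). Its SUDHL4 libraries held at most 0.197 FPKM, and in SUDHL6 the replicate 3 libraries alone passed 0.2 FPKM, at 0.809 FPKM under the inhibitor and 1.79 FPKM under DMSO. LINC01021, named PURPL by RefSeq and known as a p53-induced transcript that restrains p53, held 1.96, 1.75 and 1.88 FPKM in Farage inhibitor libraries and 7.41, 5.89 and 8.0 FPKM in DMSO libraries. This was a fall in Farage of -1.49 on the log2 scale (SE 0.13, limma adjusted p = 1.66e-07). LINC00158 fell there as well, to 1.43 ± 0.20 FPKM under the inhibitor, against 4.10 ± 0.43 FPKM under DMSO (SD, n = 3 each, limma adjusted p = 2.36e-07). LINC01268, which lies 3147 bp from MARCKS and is known for regulating that gene in human macrophages, was the exception among the 4 highest. Its inhibitor libraries held 3.95, 3.08 and 2.97 FPKM in Farage and its DMSO libraries 2.92, 2.26 and 1.95 FPKM, a log2 fold change of 0.36 (SE 0.09, limma adjusted p = 0.0032). This call was lost at a pseudocount of 0.1 FPKM (adjusted p = 0.107) and with Farage fitted alone (adjusted p = 0.0543). Of the 20 members restricted to Farage, 7 were higher, 8 lower and 5 not called under the inhibitor in that line, where 28.5% of all tested loci were higher and 36.1% lower.

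SUDHL4 alone expressed LINC01013, which was listed at 0 in all SUDHL6 libraries and at no more than 0.0698 FPKM in Farage. Its SUDHL4 libraries held 4.32, 4.17 and 6.13 FPKM under the inhibitor and 8.78, 8.91 and 9.70 FPKM under DMSO. The transcript fell by 0.80 on the log2 scale (SE 0.09, limma adjusted p = 2.4e-06), with no overlap between the groups. LINC01152 fell in SUDHL4 too, to 1.31 ± 0.28 FPKM against 1.92 ± 0.07 FPKM under DMSO (SD, n = 3 each, limma adjusted p = 0.00229), a call lost at a pseudocount of 0.1 FPKM (adjusted p = 0.157). LINC00882 was restricted to the same line, at 0.875 ± 0.359 FPKM under the inhibitor and 1.43 ± 0.56 FPKM under DMSO (SD, n = 3 each), groups that overlapped. Of the 10 members restricted to SUDHL4, 5 were higher, 3 lower and 2 not called there, where 28.8% of all tested loci were higher and 35.2% lower.

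The 4 members restricted to SUDHL6 were weak. LINC00937 held 2.68, 3.21 and 2.18 FPKM in inhibitor libraries and 1.01, 2.7 and 0.519 FPKM in DMSO libraries, groups that overlapped. Its rise was called (log2 fold change 0.71, SE 0.27, limma adjusted p = 0.0346) but not without both replicate 3 libraries (0.53, adjusted p = 0.129), and leaving out inhibitor replicate 1 or 2 or DMSO replicate 1 or 3 also ended the call (adjusted p up to 0.180). LINC01023 held 2.37, 1.61 and 0.527 FPKM under the inhibitor and 0.258, 0.743 and 0.0426 FPKM under DMSO, groups that overlapped. Its log2 fold change was 0.85 (SE 0.23, limma adjusted p = 0.00436) and 1.00 without replicate 3. It was listed at 0 in every SUDHL4 library. In SUDHL6 all its inhibitor libraries met the 0.5 FPKM of the rule, and of its DMSO libraries only replicate 2 did. The rule can thus favour this rise, and the p-value does not allow for this. LINC01024 and LINC00960 were lower, at 0.449 ± 0.167 and 0.240 ± 0.270 FPKM under the inhibitor, against 0.720 ± 0.113 and 0.645 ± 0.270 FPKM under DMSO (SD, n = 3 each, limma adjusted p = 0.00938 and 0.0143). The call of LINC01024 was lost without both replicate 3 libraries (adjusted p = 0.122), and that of LINC00960 without inhibitor replicate 3 or DMSO replicate 2 (adjusted p up to 0.0813). With SUDHL6 fitted alone none of the 4 was called, at limma adjusted p of 0.107 for LINC01023 and LINC01024, 0.144 for LINC00960 and 0.164 for LINC00937. Thus 2 of the 4 were higher and 2 lower over all libraries, where 29% of all tested loci were higher and 32% lower.

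Patterns over the 18 libraries were compared with Pearson's r of log2(FPKM + 1), as a description in which line and treatment are shared by all points. The members most like LINC00173 were LINC00954 (r = 0.953), LINC01137 (r = 0.939) and LINC00239 (r = 0.924), each restricted to Farage. Those most like LINC01013 were LINC00221 (r = 0.975), LINC01152 (r = 0.966) and LINC00882 (r = 0.941). LINC00937 had LINC01023 (r = 0.787), LINC00649 (r = 0.774) and LINC00265 (r = 0.765) nearest to it. Some abundant transcripts were almost absent from 1 line. LINC01278, an X-linked transcript chosen here after its values were seen, held 16.1 to 34.3 FPKM in the SUDHL lines and at most 0.0140 FPKM in Farage. LINC00487, singled out in the same way, held 2.90, 11.1 and 0.313 FPKM in SUDHL6 inhibitor libraries and 13.6, 25.0 and 1.40 FPKM in SUDHL6 DMSO libraries, and at most 0.0472 FPKM in Farage. In SUDHL4 it held 25.7, 26.8 and 23.4 FPKM under the inhibitor and 38.1, 37.5 and 33.5 FPKM under DMSO. Its fall in SUDHL6 missed the threshold over all libraries (-1.29, SE 0.75, limma adjusted p = 0.151) and passed it without replicate 3 (-1.5, adjusted p = 0.00415) and with the replicate number as a block (adjusted p = 0.000174). In SUDHL4 the difference was not called (-0.51, adjusted p = 0.587), although all inhibitor values lay below all DMSO values.

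The second question was what the inhibitor did to these transcripts in each line. Every one of 13377 named loci that met the same level was fitted together, and a member was called at a limma p, adjusted over all of them, under 0.05. In SUDHL6, 14 members were higher and 26 lower under the inhibitor, where 29% of all tested loci were higher and 32% lower. In SUDHL4, 27 members were higher and 25 lower, beside 28.8% and 35.2% of all loci. In Farage, 23 were higher and 33 lower, beside 28.5% and 36.1%. As a share of the members, 11.3% and 21.0% were called in SUDHL6, 21.8% and 20.2% in SUDHL4 and 18.5% and 26.6% in Farage. Every one of these shares lay below that of all loci. Among the 63 members with a mean under 1 FPKM, 5 were higher and 10 lower in SUDHL6, 8 and 11 in SUDHL4 and 9 and 15 in Farage, beside 17.6% and 18.9%, 20.8% and 20.4%, and 22.5% and 24.6% of the loci of that level. Among the 48 members of 1 to 10 FPKM, 4 were higher and 14 lower in SUDHL6. In SUDHL4 the counts were 13 and 12, and in Farage 10 and 16. Of the loci of that level, 24.2% were higher and 36.1% lower in SUDHL6, 23.9% and 39.9% in SUDHL4, and 24.1% and 40.4% in Farage. Among the 13 members of at least 10 FPKM, 5 were higher and 2 lower in SUDHL6, 6 and 2 in SUDHL4 and 4 and 2 in Farage, beside 36.8% and 33.7%, 35.5% and 37.1%, and 34.1% and 37% of the loci of that level. The counts over all 124 include 22 members with 0.5 FPKM in at least 3 inhibitor libraries but in fewer than 3 DMSO libraries, and 11 with the reverse. For these the rule that chose the members favours a direction. The median log2 fold change of the members was 0.00, 0.09 and 0.00 in SUDHL6, SUDHL4 and Farage, beside -0.00, -0.01 and -0.05 over all tested loci.

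Groups of 3 libraries that did not overlap were counted as well. All inhibitor libraries lay above all DMSO libraries for 11 members in SUDHL6, 40 in SUDHL4 and 37 in Farage, beside 26.8%, 35.6% and 35.4% of all loci. They lay below for 26, 35 and 40 members in that order of lines, beside 29.1%, 40.3% and 43% of all loci. The count of higher members in SUDHL6 leaned on replicate 3: it was 23 without the inhibitor library of that replicate and 11 without the DMSO library. Over all loci 3935 and 3845 were higher in these fits, against 3874 in the main fit. Leaving out both gave 16 higher members, of which 11 were among the 14, and 27 lower, of which 22 were among the 26. Over all loci this gave 3973 higher and 4347 lower, against 3874 and 4279 in the main fit. Over the mean of the 3 lines 36 members were higher and 41 lower, beside 35.4% and 43.3% of all loci. In no line was a call made for 40 members, and the share of all loci without a call in any line was not counted. The summed level of all members was 754 to 773 FPKM in SUDHL4 inhibitor libraries and 604 to 626 FPKM in SUDHL4 DMSO libraries. In Farage it was 399 to 423 FPKM under the inhibitor and 369 to 385 FPKM under DMSO, and in SUDHL6 425 to 454 FPKM and 382 to 451 FPKM, which overlap.

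A rise in all 3 lines was called for 7 members, LINC00152, LINC00263, LINC00657, LINC00662, LINC01128, LINC00476 and LINC00571, beside 17.1% of all loci. LINC00152 (chr2:87754265-87821038), named CYTOR by RefSeq, is a cytoplasmic transcript known for high levels in many tumours. Its SUDHL6 libraries held 40.7, 30.4 and 61.6 FPKM under the inhibitor and 5.5, 4.20 and 14.9 FPKM under DMSO. In SUDHL4 the values were 32.7, 34.2 and 23.8 FPKM under the inhibitor and 5.23, 3.96 and 7.38 FPKM under DMSO, and in Farage 30.2, 22.8 and 28.7 FPKM under the inhibitor and 6.10, 8.90 and 7.37 FPKM under DMSO. No inhibitor library overlapped a DMSO library in any line. The log2 fold changes were 2.42 (SE 0.35, limma adjusted p = 3.38e-05) in SUDHL6, 2.27 (adjusted p = 5.04e-05) in SUDHL4 and 1.74 (adjusted p = 0.000544) in Farage. A difference between these responses was not called (limma F test, adjusted p = 0.472). A near-identical copy of this gene, MIR4435-2HG, lies elsewhere on the same chromosome, so the split of reads between the copies is uncertain.

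LINC00263 (chr10:102133266-102155820), named OLMALINC, was first described in oligodendrocyte maturation. It held 18.4, 24.6 and 20.6 FPKM in SUDHL6 inhibitor libraries and 5.98, 12.2 and 9.0 FPKM in DMSO libraries. In SUDHL4 it held 75.2, 78.0 and 76.1 FPKM under the inhibitor and 21.5, 22.9 and 28.4 FPKM under DMSO. Farage had the lowest level, at 7.95, 10.9 and 9.69 FPKM under the inhibitor and 2.77, 3.27 and 3.09 FPKM under DMSO. The rises were 1.18, 1.62 and 1.37 on the log2 scale (SE 0.19 each, limma adjusted p = 6.71e-05, 2.53e-06 and 1.42e-05 in SUDHL6, SUDHL4 and Farage). LINC00657 (chr20:34633540-34638882), named NORAD, is an abundant RNA that binds PUMILIO proteins and is known for its part in chromosome stability. It held 112, 115 and 96.5 FPKM in SUDHL4 inhibitor libraries and 33.2, 32.7 and 40.4 FPKM in SUDHL4 DMSO libraries. In SUDHL6 it held 76.5, 56.5 and 54.5 FPKM under the inhibitor and 37.2, 29.5 and 25.3 FPKM under DMSO, and in Farage 43.1, 42.4 and 38.2 FPKM under the inhibitor and 29.7, 28.3 and 30.2 FPKM under DMSO. Its response differed between lines (limma F test, adjusted p = 0.00139), with rises of 1.00 in SUDHL6, 1.58 in SUDHL4 and 0.47 in Farage (SE 0.14 each, limma adjusted p = 2.36e-05, 2.23e-07 and 0.00894).

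The promoters of these transcripts are shown for the letters they hold. For each gene the window is 300 bases around its start, most of them upstream, from RefSeq GRCh38.p14, and 94 of the 124 members matched a window. Motifs were searched on both strands in every window: TTCNNAGAA for BCL6, TGATGNAA for the composite site of CEBP and ATF factors, TGACNNNGC for the antioxidant response element, and the heat shock element by its name. Capitals mark a match. The 5 windows printed are those of LINC00152 at chr2:87455177-87455476 (plus strand, no match), LINC00263 at chr10:100373326-100373625 (plus strand, TGACNNNGC), LINC00657 at chr20:36050911-36051210 (minus strand, TGACNNNGC as its reverse complement), LINC00116 at chr2:110212498-110212797 (minus strand, TGATGNAA and TGACNNNGC) and LINC00487 at chr2:6770262-6770561 (minus strand, TTCNNAGAA as its reverse complement). The first 3 had the largest mean rise among members that rose in all lines, LINC00116 fell in all lines, and LINC00487, an abundant member of the SUDHL lines, holds the BCL6 letters.
LINC00152: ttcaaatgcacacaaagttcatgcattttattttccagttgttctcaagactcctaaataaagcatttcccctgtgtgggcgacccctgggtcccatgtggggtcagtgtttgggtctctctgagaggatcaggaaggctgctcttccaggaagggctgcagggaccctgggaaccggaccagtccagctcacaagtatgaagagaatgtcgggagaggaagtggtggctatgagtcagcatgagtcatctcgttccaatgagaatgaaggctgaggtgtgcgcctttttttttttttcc
LINC00263: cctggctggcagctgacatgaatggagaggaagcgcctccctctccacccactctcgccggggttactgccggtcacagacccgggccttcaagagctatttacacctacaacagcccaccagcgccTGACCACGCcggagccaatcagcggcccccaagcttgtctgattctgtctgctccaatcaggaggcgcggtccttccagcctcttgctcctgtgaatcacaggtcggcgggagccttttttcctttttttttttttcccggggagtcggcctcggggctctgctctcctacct
LINC00657: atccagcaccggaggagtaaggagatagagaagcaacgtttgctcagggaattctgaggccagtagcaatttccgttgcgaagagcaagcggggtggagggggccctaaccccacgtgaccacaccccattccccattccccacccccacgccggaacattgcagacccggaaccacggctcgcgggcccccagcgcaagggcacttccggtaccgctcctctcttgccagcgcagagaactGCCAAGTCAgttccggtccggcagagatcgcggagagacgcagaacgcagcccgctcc
LINC00116: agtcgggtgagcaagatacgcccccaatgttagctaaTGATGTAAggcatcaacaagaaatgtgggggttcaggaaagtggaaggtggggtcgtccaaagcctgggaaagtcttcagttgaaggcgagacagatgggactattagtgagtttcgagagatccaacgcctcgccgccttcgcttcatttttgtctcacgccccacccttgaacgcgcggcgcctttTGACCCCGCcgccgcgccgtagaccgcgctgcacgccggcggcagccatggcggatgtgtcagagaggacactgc
LINC00487: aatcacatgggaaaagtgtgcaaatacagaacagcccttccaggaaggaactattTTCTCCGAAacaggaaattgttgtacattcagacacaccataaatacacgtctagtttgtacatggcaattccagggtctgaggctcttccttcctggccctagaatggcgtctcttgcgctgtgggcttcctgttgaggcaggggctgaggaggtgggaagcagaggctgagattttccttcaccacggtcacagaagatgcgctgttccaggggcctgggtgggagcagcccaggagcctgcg

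Such matches are common. TTCNNAGAA lay in 4 of the 94 member windows (4.26%) and in 4.51% of all 35116 windows. TGATGNAA lay in 3 (3.19%), against 3.62% of all windows. TGACNNNGC lay in 18 (19.1%), against 13.3% of all windows, and the heat shock element in 0 of 94, against 0.49% of all windows. A match is a string of letters and no measured site.

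The other members called higher in all lines had smaller mean rises over the 3 lines. LINC00662 rose most in Farage, to 13.8, 13.0 and 13.5 FPKM under the inhibitor, against 4.92, 4.96 and 5.01 FPKM under DMSO. Its log2 fold changes were 0.57 in SUDHL6, 0.78 in SUDHL4 and 1.28 in Farage (SE 0.11 each, limma adjusted p = 0.000409, 2.06e-05 and 1.65e-07). LINC01128 rose to 7.07 ± 0.47 FPKM in Farage against 3.33 ± 0.41 FPKM under DMSO (SD, n = 3 each), and its span on chromosome 1 is also that of LINC00115, so their reads may be shared. LINC00115 was higher in SUDHL4, at 4.12, 4.81 and 4.84 FPKM under the inhibitor and 1.30, 1.27 and 2.07 FPKM under DMSO (log2 fold change 1.15, SE 0.12, limma adjusted p = 8.1e-07). In Farage its rise was 0.35 (SE 0.12, limma adjusted p = 0.018), a call lost without inhibitor replicate 1 or DMSO replicate 1 (adjusted p up to 0.0569). LINC00476 rose by 0.37 to 0.41 in the 3 lines. LINC00571 is weak, at 0.704 ± 0.264 FPKM under the inhibitor and 0.127 ± 0.060 FPKM under DMSO in Farage (SD, n = 3 each), and its call in SUDHL6 was lost without both replicate 3 libraries (log2 fold change 0.13, adjusted p = 0.517) and with the replicate block (adjusted p = 0.0967).

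**Figure D2:**
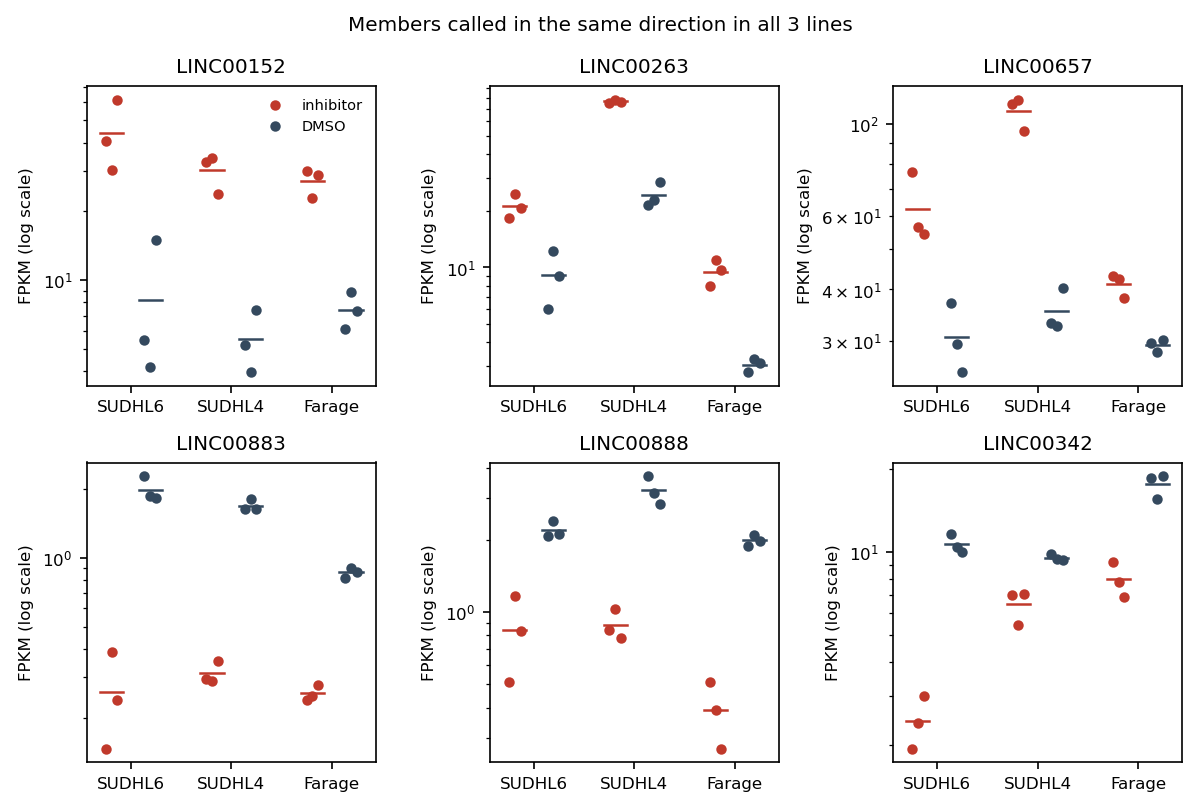
The plots give FPKM on a log scale in each library of 6 members called in the same direction in every line, with inhibitor libraries left of DMSO libraries and a bar at each mean of 3. LINC00152, LINC00263 and LINC00657 sit higher under the inhibitor, and LINC00883, LINC00888 and LINC00342 lower, with no overlap between groups in any line.

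A fall in all 3 lines was called for 11 members, beside 19.5% of all loci: LINC00342, LINC00888, LINC00116, LINC00883, LINC01184, LINC00959, LINC00324, LINC01311, LINC00618, LINC01137 and LINC00638. LINC00342 held 1.93, 2.39 and 3.01 FPKM in SUDHL6 inhibitor libraries and 11.7, 10.4 and 10.0 FPKM in DMSO libraries. In Farage it held 9.24, 7.77 and 6.91 FPKM under the inhibitor and 18.6, 15.7 and 18.9 FPKM under DMSO, and in SUDHL4 6.99, 5.45 and 7.08 FPKM under the inhibitor and 9.85, 9.48 and 9.37 FPKM under DMSO. The fall was deepest in SUDHL6, with log2 fold changes of -1.78, -0.50 and -1.06 in SUDHL6, SUDHL4 and Farage (SE 0.13 each, limma adjusted p = 5.39e-08, 0.00303 and 4.11e-06), and the responses differed (limma F test, adjusted p = 0.00018). LINC00883 (chr3:106959534-107045811), named DUBR and first described in mouse muscle differentiation, was low throughout. It held 0.146, 0.389 and 0.238 FPKM in SUDHL6 inhibitor libraries and 2.27, 1.86 and 1.82 FPKM in DMSO libraries. In SUDHL4 it averaged 0.313 ± 0.035 FPKM under the inhibitor and 1.68 ± 0.10 FPKM under DMSO, and in Farage 0.255 ± 0.021 FPKM and 0.863 ± 0.046 FPKM (SD, n = 3 each). The log2 fold changes were -1.25, -1.03 and -0.57 (SE 0.07 each, limma adjusted p = 9.01e-09, 1.85e-08 and 5.65e-06), and they understate the change of a transcript this low. No inhibitor library reached 0.5 FPKM, so LINC00883 is a member through DMSO libraries alone. The rule thus favours its fall, and the p-values do not allow for this.

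LINC00888 (chr3:183165396-183173803), named SNHG33 as a host gene of small nucleolar RNA, held 0.512, 0.390 and 0.269 FPKM in Farage inhibitor libraries and 1.89, 2.09 and 1.99 FPKM in DMSO libraries. In SUDHL6 it averaged 0.839 ± 0.330 FPKM under the inhibitor and 2.20 ± 0.18 FPKM under DMSO, and in SUDHL4 0.883 ± 0.133 FPKM and 3.22 ± 0.43 FPKM (SD, n = 3 each). Its log2 fold changes were -0.81, -1.16 and -1.11 in SUDHL6, SUDHL4 and Farage (SE 0.12 each, limma adjusted p = 2.53e-05, 5.88e-07 and 1.02e-06). LINC01184 is more abundant, with 8.96, 8.56 and 10.4 FPKM under the inhibitor and 17.5, 18.4 and 14.8 FPKM under DMSO in SUDHL4. It fell by nearly the same amount in every line, -0.81, -0.79 and -0.84 (SE 0.12 each, limma adjusted p = 3.73e-05, 3.98e-05 and 2.54e-05). LINC00959 fell by 1.12 in SUDHL6, 0.64 in SUDHL4 and 0.61 in Farage. The other members of this group, LINC00324, LINC01311, LINC00618, LINC01137 and LINC00638, had means of 0.632 to 1.94 FPKM and log2 fold changes between -0.24 and -1.04. Among them the groups overlapped once, for LINC00618 in SUDHL4. By level LINC01137 was restricted to Farage.

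**Figure D3:**
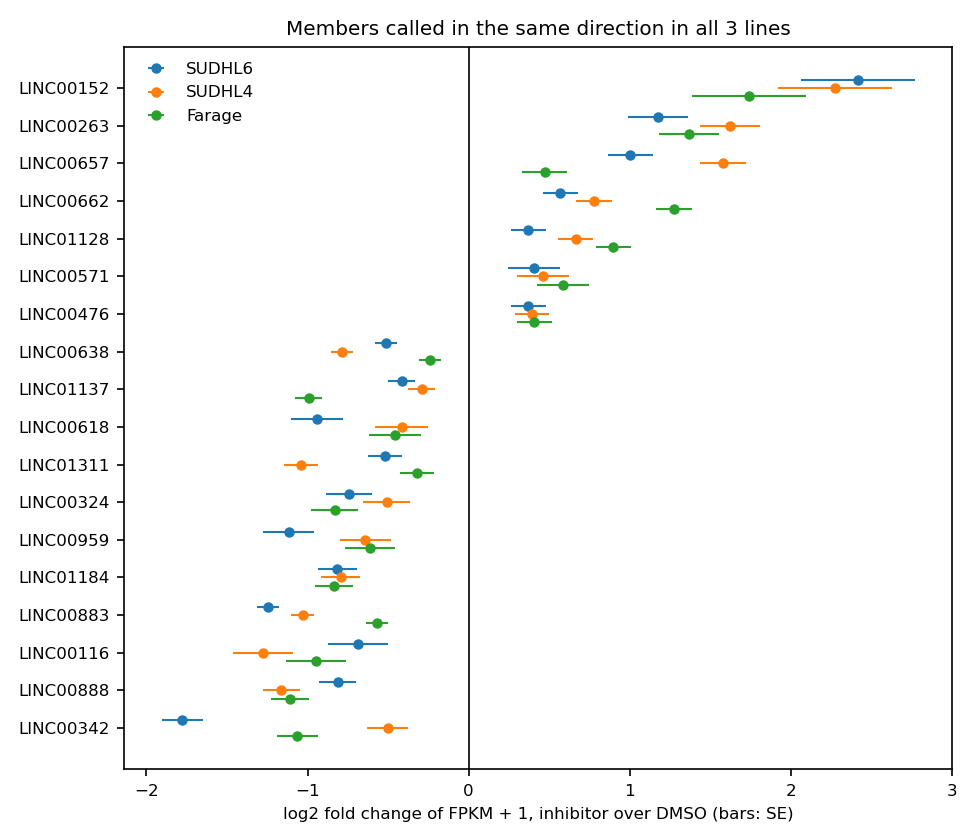
Points give the log2 fold change of FPKM + 1, inhibitor over DMSO, with bars of 1 SE, in SUDHL6, SUDHL4 and Farage for the 7 members called higher and the 11 called lower in all 3 lines. LINC00152 lies farthest right, at 2.42, 2.27 and 1.74, and LINC00342 in SUDHL6 farthest left, at -1.78.

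Some members are now known as microprotein genes. LINC00493, now SMIM26, encodes a small mitochondrial protein and was the most abundant member. It averaged 56.4 ± 4.0, 78.5 ± 4.1 and 59.8 ± 3.8 FPKM under the inhibitor in SUDHL6, SUDHL4 and Farage, and 50.6 ± 4.7, 74.6 ± 2.2 and 52.1 ± 5.3 FPKM under DMSO (SD, n = 3 each), with groups that overlapped in every line. It was called in no line, although in Farage the adjusted p was 0.0508 and 11 of 29 alternatives gave a call there (adjusted p 0.00666 to 0.228 over them), and over the 3 lines its log2 fold change was 0.14 (SE 0.05, limma adjusted p = 0.0151). LINC00998, now SMIM30, was called in no comparison, with 34.6, 36.3 and 36.7 FPKM under the inhibitor and 30.6, 35.8 and 35.0 FPKM under DMSO in Farage. LINC00116, now MTLN, encodes mitoregulin, a protein of the inner mitochondrial membrane. It held 0.868, 0.645 and 0.771 FPKM in SUDHL4 inhibitor libraries and 3.74, 3.44 and 2.67 FPKM in DMSO libraries, and in Farage 1.40, 1.38 and 1.53 FPKM under the inhibitor and 4.12, 3.81 and 3.22 FPKM under DMSO. It fell by 1.28 in SUDHL4 (SE 0.19, limma adjusted p = 2.7e-05) and by 0.95 in Farage (adjusted p = 0.000403). In SUDHL6 it held 2.21, 2.68 and 1.03 FPKM under the inhibitor and 2.95, 3.43 and 4.72 FPKM under DMSO, and its fall there of -0.69 (limma adjusted p = 0.00501) was not called without both replicate 3 libraries (-0.28, adjusted p = 0.0696) or with the line fitted alone (adjusted p = 0.10). LINC00094, now BRD3OS, shares the span of BRD3. It fell in SUDHL4 to 1.64, 1.68 and 2.20 FPKM under the inhibitor, against 4.75, 5.62 and 4.90 FPKM under DMSO (log2 fold change -1.1, SE 0.11, limma adjusted p = 5.5e-07). Of the 10 members that RefSeq classes as protein coding, 1 was higher and 2 lower in SUDHL6 (29% and 32% of all loci), 2 higher and 3 lower in SUDHL4 (28.8% and 35.2%), and 1 higher and 4 lower in Farage (28.5% and 36.1%).

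Other abundant or known members were called in 1 or 2 lines. LINC00221 spans 106714573 to 107095581 on chromosome 14, the end that holds the immunoglobulin heavy chain genes. It held 135, 151 and 156 FPKM in SUDHL4 inhibitor libraries and 138, 143 and 126 FPKM in SUDHL4 DMSO libraries, was listed at 0 in all SUDHL6 libraries, and in Farage held 0, 0.393 and 0 FPKM under the inhibitor and 0.583, 1.72 and 1.42 FPKM under DMSO. It was not called in SUDHL4 (limma adjusted p = 0.562) and was lower in Farage (adjusted p = 0.000119). Whether reads of immunoglobulin segments count toward it was not tested. LINC00665, known from breast cancer cells to encode a micropeptide, held 9.05, 12.7 and 12.0 FPKM under the inhibitor in SUDHL4 and 36.5, 39.3 and 31.9 FPKM under DMSO. Its log2 fold change was -1.60 in SUDHL4 (SE 0.15, limma adjusted p = 4.17e-07) and -0.95 in SUDHL6 (adjusted p = 8.3e-05). In Farage it stayed under 1 FPKM, at 0.955 ± 0.058 FPKM under the inhibitor and 0.768 ± 0.112 FPKM under DMSO (SD, n = 3 each, limma adjusted p = 0.43). LINC01102 held 0.951, 1.36 and 0.627 FPKM in SUDHL6 inhibitor libraries and 20.7, 18.1 and 7.16 FPKM in DMSO libraries. At -2.94 in SUDHL6 (SE 0.26, limma adjusted p = 2.6e-07) this was the deepest fall of a named member, followed in SUDHL4 by -1.04 (adjusted p = 0.00239), and all 6 Farage values were 0. LINC01191 was higher under the inhibitor in Farage, at 1.43, 1.1 and 1.44 FPKM, against 0.215, 0 and 0 FPKM under DMSO (log2 fold change 1.12, SE 0.20, limma adjusted p = 0.000158). In Farage only its inhibitor libraries met the 0.5 FPKM of the rule. The rule can thus favour this rise, and the p-value does not allow for this. LINC00963 was higher in Farage, at 5.21 ± 0.26 FPKM against 3.11 ± 0.04 FPKM under DMSO (SD, n = 3 each, limma adjusted p = 0.0277), a call that leaving out any of 5 of the 6 Farage libraries ended (adjusted p up to 0.0665). In SUDHL6 it was not called over all libraries (0.23, limma adjusted p = 0.385), but was called higher without both replicate 3 libraries (0.31, adjusted p = 0.0156) and with the replicate block (adjusted p = 0.0392). LINC01089, known in breast epithelial cells as a transcript lowered by growth factor signals, rose in SUDHL4 to 3.24, 2.48 and 3.02 FPKM, against 1.29, 1.85 and 1.40 FPKM under DMSO (log2 fold change 0.64, SE 0.13, limma adjusted p = 0.000467). LINC00265 was lower in Farage alone by call, at 1.27 ± 0.11 FPKM against 1.78 ± 0.13 FPKM under DMSO (SD, n = 3 each, limma adjusted p = 0.0227), which leaving out inhibitor replicate 1 or 3 or DMSO replicate 1 or 3 ended (adjusted p up to 0.0766). The difference of LINC00265 between lines was not called (limma F test, adjusted p = 0.248).

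The test of the difference itself called 49 of 124 members, beside 51.1% of all loci. For 8 members, LINC01215, LINC00909, LINC01353, LINC00598, LINC00528, LINC01134, LINC01355 and LINC00521, 1 line was called higher and another lower. How many of all tested loci split in this way was not counted. LINC01215 (chr3:107843286-107857696) held 17.8, 19.1 and 17.7 FPKM in Farage inhibitor libraries and 9.71, 9.69 and 9.75 FPKM in DMSO libraries. In SUDHL6 it held 3.00, 3.69 and 2.84 FPKM under the inhibitor and 10.1, 10.3 and 7.69 FPKM under DMSO, and in SUDHL4 8.03, 8.57 and 5.84 FPKM under the inhibitor and 9.89, 9.18 and 9.17 FPKM under DMSO. Levels under DMSO were thus close to each other in the 3 lines while the responses ran apart, at 0.84 in Farage, -1.31 in SUDHL6 and -0.31 in SUDHL4 (SE 0.12 each, limma adjusted p = 2.9e-05, 5.14e-07 and 0.0392). The F test gave an adjusted p of 1.07e-06. The SUDHL4 call was the weak one and was lost without inhibitor replicate 3 or any 1 DMSO replicate (adjusted p up to 0.222). LINC00528 (chr22:18259829-18263397) rose in SUDHL4, to 5.69, 5.86 and 6.41 FPKM under the inhibitor, against 2.50, 2.64 and 3.22 FPKM under DMSO (log2 fold change 0.89, SE 0.11, limma adjusted p = 5.21e-06). It fell in Farage, to 1.24, 1.31 and 1.23 FPKM, against 2.96, 3.11 and 3.15 FPKM under DMSO (-0.85, adjusted p = 8.38e-06; F test, adjusted p = 2.03e-06). In SUDHL6 it held at most 0.712 FPKM, and its fall of -0.35 (limma adjusted p = 0.0121) was lost without DMSO replicate 3 (adjusted p = 0.0663) and with the line fitted alone (adjusted p = 0.107).

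LINC00589 fell deeply in SUDHL4 and was not called in Farage. Its inhibitor libraries held 0.0310, 0.0986 and 0.0696 FPKM in SUDHL4 and its DMSO libraries 2.75, 2.56 and 2.68 FPKM, a log2 fold change of -1.78 (SE 0.12, limma adjusted p = 1.21e-08). In Farage it held 2.85, 2.03 and 2.44 FPKM under the inhibitor and 2.41, 2.42 and 2.99 FPKM under DMSO (-0.07, adjusted p = 0.616). The F test gave an adjusted p of 2.14e-06. In SUDHL6, where it was under 0.6 FPKM, the log2 fold change was -0.26 (limma adjusted p = 0.0689), called lower without both replicate 3 libraries (-0.35, adjusted p = 0.0256) and with the replicate block (adjusted p = 0.0385). LINC00891, an X-linked transcript whose span overlaps 7 other named loci, fell in both lines that expressed it. It held 0.173, 0.212 and 0.264 FPKM in SUDHL4 inhibitor libraries and 2.16, 2.23 and 1.84 FPKM in DMSO libraries (-1.34, SE 0.06, limma adjusted p = 8.98e-10). In Farage it held 0.146, 0.168 and 0.256 FPKM under the inhibitor and 1.61, 1.30 and 1.52 FPKM under DMSO (-1.06, adjusted p = 4.36e-09). In SUDHL6, where the response was not called, it held at most 0.0890 FPKM (F test of the difference, adjusted p = 6.19e-08). No inhibitor library reached 0.5 FPKM, so LINC00891 is a member through DMSO libraries alone. The rule thus favours its fall, and its p-values do not allow for this.

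Several other members were called in opposite directions. LINC01134 held 1.02, 1.26 and 0.741 FPKM in SUDHL6 inhibitor libraries and 3.10, 3.33 and 2.22 FPKM in DMSO libraries, and in Farage 1.31, 1.27 and 0.875 FPKM under the inhibitor and 0.486, 0.556 and 0.485 FPKM under DMSO. It was lower in SUDHL6 (-0.95, SE 0.11, limma adjusted p = 5.14e-06) and higher in Farage (0.51, adjusted p = 0.00126), with no overlap in either line. LINC00521 was higher in SUDHL4, at 0.645 ± 0.146 FPKM against 0.138 ± 0.031 FPKM under DMSO, and lower in Farage, at 0.462 ± 0.064 FPKM against 0.915 ± 0.192 FPKM under DMSO (SD, n = 3 each, limma adjusted p = 1.81e-05 and 0.000333). LINC00598 and LINC00909 split in the same direction, with log2 fold changes of 0.49 and 0.58 in SUDHL4 and -0.51 and -0.45 in Farage. LINC01355 was lower in SUDHL6 (-0.39) and higher in SUDHL4 (0.26). LINC01353 was lower in SUDHL6 (-0.56, limma adjusted p = 0.00788) and higher in Farage (0.44, adjusted p = 0.0276), and the SUDHL6 call was lost without both replicate 3 libraries (adjusted p = 0.0615). Beside the 8, the test of the difference depended on the pseudocount for members expressed in a single line. At 0.1 FPKM the F test no longer called LINC01021 (adjusted p = 0.410), LINC00158 (0.167) or LINC00173 (0.149), and it called 37 members in place of 49.

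**Figure D4:**
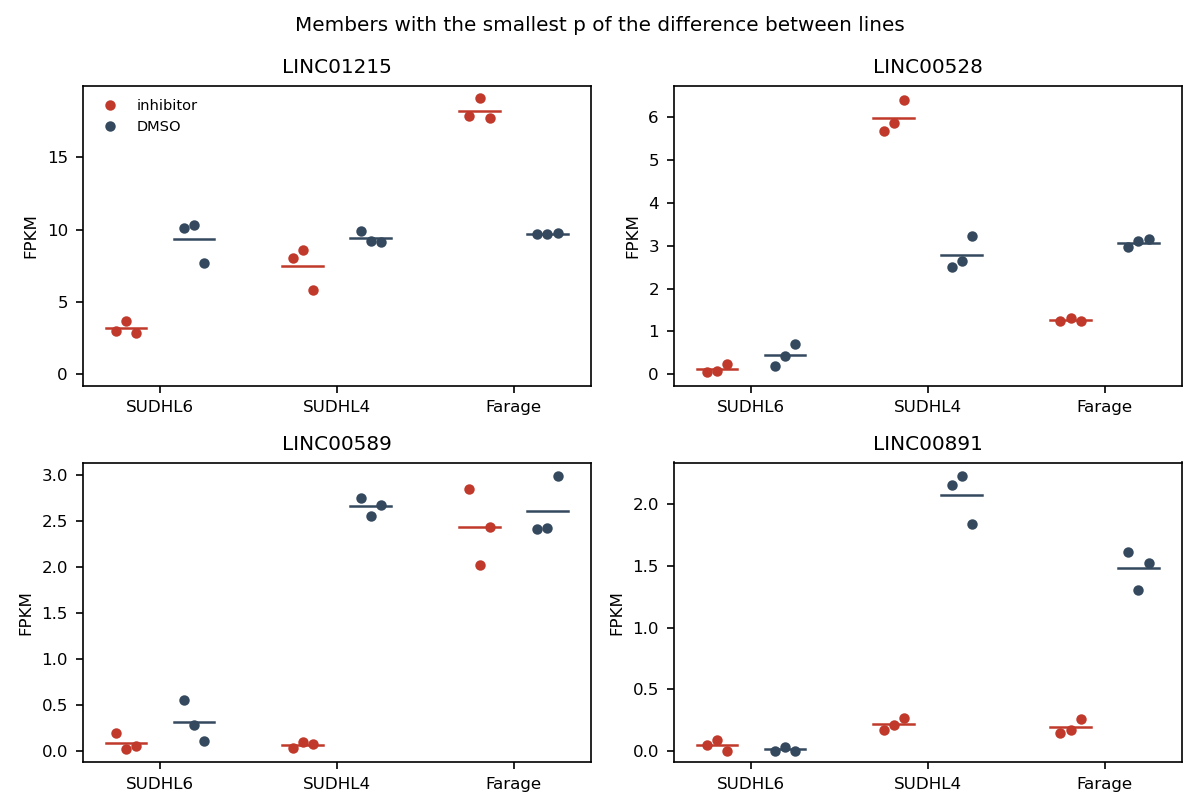
The plots give FPKM (linear scale) in each library, inhibitor left of DMSO in each line, with a bar at each mean of 3, for the 4 members with the smallest p of the difference between lines. LINC01215 is higher under the inhibitor in Farage and lower in SUDHL6, LINC00528 is higher in SUDHL4 and lower in Farage, LINC00589 falls in SUDHL4 and overlaps in Farage, and LINC00891 falls in SUDHL4 and Farage and stays at or under 0.0890 FPKM in SUDHL6.

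Because some long noncoding RNAs act on the gene beside them, each member was set beside its nearest named neighbour. Loci with a LINC, small RNA or merged name were not taken as neighbours, so a closer gene of that kind was passed over. A tested neighbour was found for 84 members, and 28 members of all 124 share their span with their nearest named neighbour, tested or not. Strand was not given, so reads of overlapping pairs cannot be told apart. Of the members named above, LINC00662, LINC00665, LINC00959, LINC00476, LINC01152, LINC01191, LINC00094, LINC00891, LINC00909, LINC01353, LINC00649, LINC00337 and LINC00884 have such a shared span. Both genes were called over the mean of the 3 lines in 48 pairs, 27 in the same direction and 21 in opposite ones, and across the 84 pairs Pearson's r of the mean log2 fold changes was 0.0779. Some close pairs parted. LINC01184 (RefSeq SLC12A2-DT) lies 185 bp from SLC12A2, a sodium, potassium and chloride cotransporter. SLC12A2 rose in SUDHL6, SUDHL4 and Farage, by 0.58, 0.79 and 0.49 on the log2 scale (limma adjusted p = 0.000164, 8.68e-06 and 0.000671), where LINC01184 fell. LINC01137 lies 74 bp from ZC3H12A, the RNase regnase-1, and fell by 0.42, 0.29 and 0.99 in SUDHL6, SUDHL4 and Farage, where ZC3H12A rose by 0.82, 0.66 and 0.41 (limma adjusted p = 1.65e-05, 0.0001 and 0.00448). Since LINC01137 was restricted to Farage, most of its SUDHL6 and SUDHL4 values lay under 0.5 FPKM. LINC00888 and KLHL6, a ubiquitin ligase adaptor of germinal centre B cells, are 17678 bp apart. KLHL6 averaged 52.5, 123 and 77.1 FPKM under the inhibitor in SUDHL6, SUDHL4 and Farage and 23.6, 47.2 and 27.0 FPKM under DMSO, rises of 1.01, 1.37 and 1.48 (limma adjusted p = 0.00189, 0.000141 and 7.15e-05).

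Other pairs were called in the same direction. LINC01136 (RefSeq BTG2-DT), 28 bp from the antiproliferative gene BTG2, fell by 0.32 over the mean of the 3 lines (limma adjusted p = 0.000176) where BTG2 fell by 0.94. LINC00324 lies 134 bp from CTC1, a telomere maintenance gene that fell by 0.37, 0.25 and 0.24 in SUDHL6, SUDHL4 and Farage (limma adjusted p = 0.00164, 0.0177 and 0.0237). For SCD, the desaturase gene 8677 bp from LINC00263, the mean over the 3 lines was not called. SCD averaged 64.7 FPKM under the inhibitor and 108 FPKM under DMSO in SUDHL6, where it fell (-0.72, limma adjusted p = 0.0155). It averaged 292 FPKM under the inhibitor and 202 FPKM under DMSO in SUDHL4 (0.53, adjusted p = 0.0597), and 119 FPKM under the inhibitor and 84.7 FPKM under DMSO in Farage (0.49, adjusted p = 0.0826). These pairs were chosen after their values were seen.

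**Figure D5:**
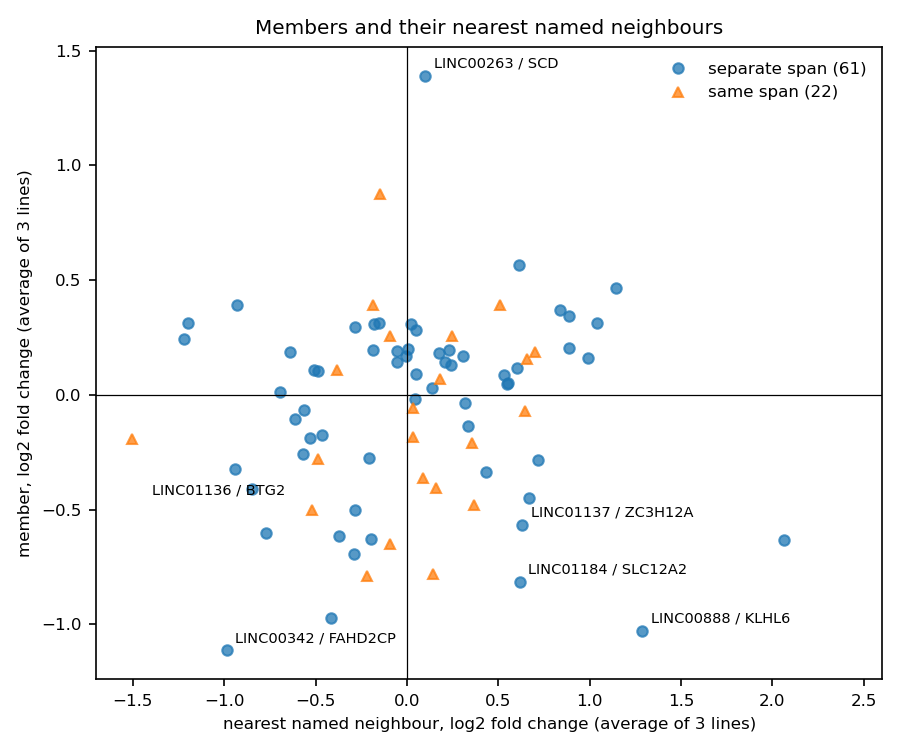
Each of 83 points is a member with its nearest tested named neighbour, placed by the log2 fold change of the neighbour (x) and of the member (y), each the mean of the 3 lines, with triangles where both share a span. Points lie in all 4 quadrants, and LINC01184, LINC01137 and LINC00888 are lower where their neighbours are higher. A pair on chromosome Y is not drawn.

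Long noncoding RNAs with other symbols give a comparison. Of 38 such transcripts listed, 17 were tested, 13 had only a merged row, 6 were below the level, and CYTOR and NORAD are members under their LINC symbols. Over the mean of the 3 lines 8 were higher and 5 lower, beside 35.4% and 43.3% of all loci. LUCAT1, a stress-induced transcript, averaged 15.4, 14.0 and 15.6 FPKM under the inhibitor in SUDHL6, SUDHL4 and Farage and 0.166, 0.651 and 0.257 FPKM under DMSO, a mean log2 fold change of 3.60 (limma adjusted p = 4.43e-11), larger than that of LINC00152 at 2.15. TUG1 rose by 0.81 (adjusted p = 6.39e-10), between LINC00662 at 0.88 and LINC01128 at 0.65. THRIL fell by 1.42 (adjusted p = 2.4e-09), more than LINC00342 at -1.11, and DLEU1 by 0.93 (adjusted p = 7.91e-09).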

How the data were processed

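Illumina sequencing measured mRNA in 18 libraries of 3 lymphoma lines, and 1 table of FPKM per locus was deposited by the authors. CASAVA 1.8, TopHat2, Cufflinks and the hg19 build are named in the submitters' processing notes, without their roles. Deposited FPKM values keep no read counts, so the depth behind a value is unknown, as is strand, and low values carry the most error. Of 34410 loci, 26004 are named, and the 13377 that reached 0.5 FPKM in 3 libraries were tested.

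Values were taken as log2(FPKM + 1), which understates changes of low transcripts. limma 3.58.1 in R 4.3.3 fitted 6 group means with an intensity trend and Benjamini-Hochberg adjustment over all tested loci, each line's inhibitor minus DMSO difference, their mean, and an F test of whether these differences were equal in the lines. All p-values described as adjusted come from it. The code was tested on simulated data. The members, gene lists and tests were chosen with earlier results of these data known. Members were named by level (the 6 highest), by the largest changes per line, by calls in all 3 lines, by the 4 smallest p of the difference, by restriction to 1 line (up to 4 each) and from a list of transcripts with a known background. A member on chromosome Y counts among the 124 and is not described. A marker result is not reported here.

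Same-numbered inhibitor and DMSO libraries deviated together in SUDHL6 (r = 0.308, 0.360 and 0.661 for numbers 1, 2 and 3). Numbers 1 and 2 correlated there as well when crossed (0.320 and 0.267). For same-numbered libraries of SUDHL4 and Farage r lay between -0.0578 and 0.0756. The main fit took no libraries as pairs. Only the replicate block, an alternative, paired same-numbered libraries, and it did so in every line. Alternatives were other pseudocounts, filters, scalings, array weights, a replicate block, single lines and left-out libraries.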

Additional observations from a re-analysis of the deposited data

Results flagged for a closer look

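Of the 40 members chosen by the naming rule, 21 differed in their inhibitor response between lines by the limma F test of the difference itself, where 51.1% of all tested loci did so. Other members described in the report differed as well and are not repeated. The adjusted p was 6.19e-08 for LINC00891, 1.07e-06 for LINC01215, 2.03e-06 for LINC00528 and 2.14e-06 for LINC00589. It was 4.16e-05 for LINC00094, 4.32e-05 for LINC00158, 5.13e-05 for LINC01102 and 5.69e-05 for LINC00665. LINC01021 had 0.000113, LINC00342 0.00018, LINC01013 0.000188, LINC00883 0.000218 and LINC00115 0.000497. LINC00891 and LINC00883 met the level of the rule in DMSO libraries alone, so the rule favours a fall of both. In Farage LINC01191 met that level in inhibitor libraries alone, so the rule can favour its rise there.

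The adjusted p was 0.00139 for LINC00657, 0.00248 for LINC00221, 0.00426 for LINC00173 and 0.00489 for LINC00662. Weaker differences were those of LINC01089 (0.0314), LINC01268 (0.0338), LINC01191 (0.0352) and LINC00884 (0.0428), and each of these 4 was lost when some single library was left out, with adjusted p up to 0.0830, 0.102, 0.0821 and 0.109. At a pseudocount of 0.1 FPKM the difference was no longer called for LINC01021 (0.410), LINC00158 (0.167), LINC00173 (0.149), LINC01191 (0.217), LINC01268 (0.240) and LINC00884 (0.200).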

How the results depend on the processing

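The number of members higher in SUDHL6, 14, became 7 with array weights and 6 with the line fitted alone. Over all 13377 loci 3363 and 2848 were higher in these settings, against 3874 in the main fit. Leaving out 1 library at a time gave 11 to 23 higher members, and 3599 to 3935 higher loci over all 13377. A setting added after seeing the data left out both replicate 3 libraries and fitted the line alone. It gave 7 higher members, and 13 lower in place of 26. Over all loci it gave 2114 higher and 2089 lower, against 3874 and 4279 in the main fit. LINC00173 in SUDHL6 turned there to 0.17 (limma adjusted p = 0.0288), against -0.10 (adjusted p = 0.823). Array weights gave 54 higher members in SUDHL4 in place of 27, 41 in Farage in place of 23 and 76 differences between lines in place of 49. Counts over all 13377 loci moved too under array weights, to 5121 higher in SUDHL4 (3850 without them), 4714 higher in Farage (3812) and 9723 differences (6832). Without both SUDHL6 replicate 3 libraries, 35 members were higher in Farage in place of 23, and over all loci 4180 in place of 3812. The causes were not tested. At 1 FPKM in 3 libraries of a line, 41 members were expressed in all lines, 2 in SUDHL6 alone, 13 in Farage alone and 38 in no line, which was 19 with DMSO libraries only.

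With the replicate block, 20 members were higher and 28 lower in SUDHL6, 36 and 29 in SUDHL4, 32 and 31 in Farage and 49 and 43 over the 3 lines, and 58 differed between lines. Over all loci the counts rose to 4109 higher and 4588 lower in SUDHL6, 4192 and 4931 in SUDHL4 and 4067 and 5129 in Farage. They rose to 4990 and 5958 over the 3 lines, and differences between lines to 7700, against 6832 in the main fit. Among the members chosen by the naming rule the block added 10 calls and ended 4, those of LINC00337 in SUDHL6 (adjusted p = 0.0589) and over the 3 lines (0.0697), of LINC00094 in Farage (0.0704) and of the difference between lines of LINC01089 (0.0839). The number of members called stayed within 1.5 times its value under the other pseudocounts, filters and scalings. FPKM without counts leaves the error of members under 1 FPKM unknown.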
